A study of Mus musculus with 14 samples.

Results

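The mitotic spindle and kinetochore genes are 50 genes that a dividing cell uses to enter mitosis, hold and separate its chromosomes and split in 2. They were listed by name for their roles in cell division, with earlier results of these arrays known. Of the 50 names 49 matched a probe set that the platform table gives a single gene symbol, out of 18194 such genes in all, and Ccnb1, the gene of cyclin B1, was not analysed here. Of the 49 genes, 48 reached a log2 signal of 6 on at least 3 of the 14 arrays, as did 7393 genes in all, and were tested. Cenph, a constitutive centromere protein, was under that level on every array. Its log2 signal was 5.65 to 5.86 in Cbfb+/MYH11 blood, 4.86 to 5.03 in WT, 5.11 to 5.36 in Cbfb-/- and 4.74 to 4.94 in Cbfb+/+.

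RNA came from the peripheral blood of E12.5 mouse embryos (E, embryonic day), pooled from 8 to 10 embryos of a genotype, and was hybridised to Affymetrix mouse arrays. Cbfb encodes core binding factor beta, the partner of the RUNX transcription factors, and Cbfb-MYH11 is the fusion gene made by the inversion of chromosome 16 in human acute myeloid leukaemia. The Cbfb+/MYH11 embryos (4 arrays), which carry 1 fusion allele and 1 normal allele, and their littermates with genotype Cbfb+/+, called WT (4 arrays), came from Cbfb-MYH11 chimeras mated to C57/Bl6 females. The Cbfb-/- embryos (3 arrays), which lack both normal alleles, and their Cbfb+/+ littermates (3 arrays) came from Cbfb+/- parents. Both changes are carried by every cell of the embryo from conception, so blood cells are not the only cells affected. Since each group's arrays are named technical replicates, with no word on how many blood pools stand behind them, p-values and errors cover array-to-array spread, possibly a purely technical one.

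Cells make most mitotic transcripts only late in the cell cycle, when cyclin A and cyclin B with the kinase CDK1 drive entry into mitosis. The kinetochore, built on the centromere, then binds spindle microtubules, and the spindle checkpoint holds back the anaphase promoting complex until all chromosomes are attached, after which separase cuts cohesin and the cell divides. At this age the circulation holds mainly primitive erythroid cells from the yolk sac, which still divide while they mature. In a bulk RNA sample a larger share of dividing cells and more RNA of these genes in each cell cannot be told apart, and all levels below are of the whole pool.

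The arrays carried the markers of red cells: summed over 8 erythroid markers the signal was 81567 to 88853 in all 4 groups, and the globin probe sets were near the top of the scale, where arrays can saturate. The median log2 signal over all genes was 4.27 to 4.46 per array. The 1 probe set of Cbfb gave log2 signals of 8.44, 8.56, 6.91 and 7.06 on Cbfb+/MYH11 arrays 1 to 4, 6.62, 6.57, 8.31 and 8.14 on WT arrays 1 to 4, 7.03, 6.80 and 6.98 on the Cbfb-/- arrays, and 6.52, 6.56 and 6.27 on the Cbfb+/+ arrays. It was thus higher with the fusion in arrays 1 and 2, lower in arrays 3 and 4, and not lower in Cbfb-/- blood. The sources used here do not place its probes against the deleted or joined sequence, so it is no check of the labels, and the genotypes are taken as labelled. The fusion cross falls into 2 pairs of arrays, numbered 1 and 2 and numbered 3 and 4, whose members resemble each other, and WT arrays 1 and 2 stand apart from all others. The median log2 signal over the 48 tested genes was 8.38, 8.33, 8.23 and 8.23 on Cbfb+/MYH11 arrays 1 to 4, 6.38, 6.51, 7.51 and 7.53 on WT arrays 1 to 4, 8.40, 8.13 and 8.18 on the Cbfb-/- arrays, and 7.46, 7.45 and 7.51 on the Cbfb+/+ arrays. WT arrays 1 and 2 were the 2 lowest of all 14 arrays for 39 of the 48 genes, and 15 of the genes were under a log2 signal of 6 on both, so that changes measured from there can be too small. The change of each gene in the fusion cross is therefore given over all arrays and within arrays 3 and 4 alone.

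Blood with the fusion held more of nearly all of these transcripts than blood of WT littermates. A gene was called when its adjusted p in limma, with Benjamini-Hochberg adjustment over 7393 genes, was under 0.05 and its change was at least 1.5-fold. By that rule 43 of the 48 genes were higher and 0 were lower in Cbfb+/MYH11 blood, where over all tested genes 30.5% were called higher and 5.63% lower (4921 genes had an unadjusted p under 0.05). Among the 43, Cenpe, Ect2, Kif11, Ncapg, Ndc80 and Ttk did not reach a log2 signal of 6 on 3 of the WT and Cbfb+/+ arrays. They were tested only because of the mutant arrays, so their calls add nothing to the count. The median change was 1.39 on the log2 scale over the 48 genes and 0.26 over all tested genes. The 5 genes not called were Foxm1, Nusap1 and Spc24, whose adjusted p was under 0.05 but whose differences were under 1.5-fold, and Pttg1 and Ube2c. All 4 Cbfb+/MYH11 arrays lay above all 4 WT arrays for 46 of 48 genes, against 39.5% of all tested genes, the exceptions being Pttg1 and Ube2c. Within arrays 3 and 4 alone, 35 of 48 genes were higher, against 24.6% of all genes, and the median change was 0.83. Without WT arrays 1 and 2, but with all Cbfb+/MYH11 arrays, 34 genes were higher (20.4% of all genes), with a median of 0.81. Quantile scaling of the arrays moved the median of all genes from 0.26 to -0.04, and 37 of the 48 genes were then higher and 0 lower, against 17.3% of all genes called higher and 1070 of 7457 called lower. Of 29 further probe sets of 20 of these genes, 20 were higher, 0 lower and 9 not called.

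**Figure D1:**
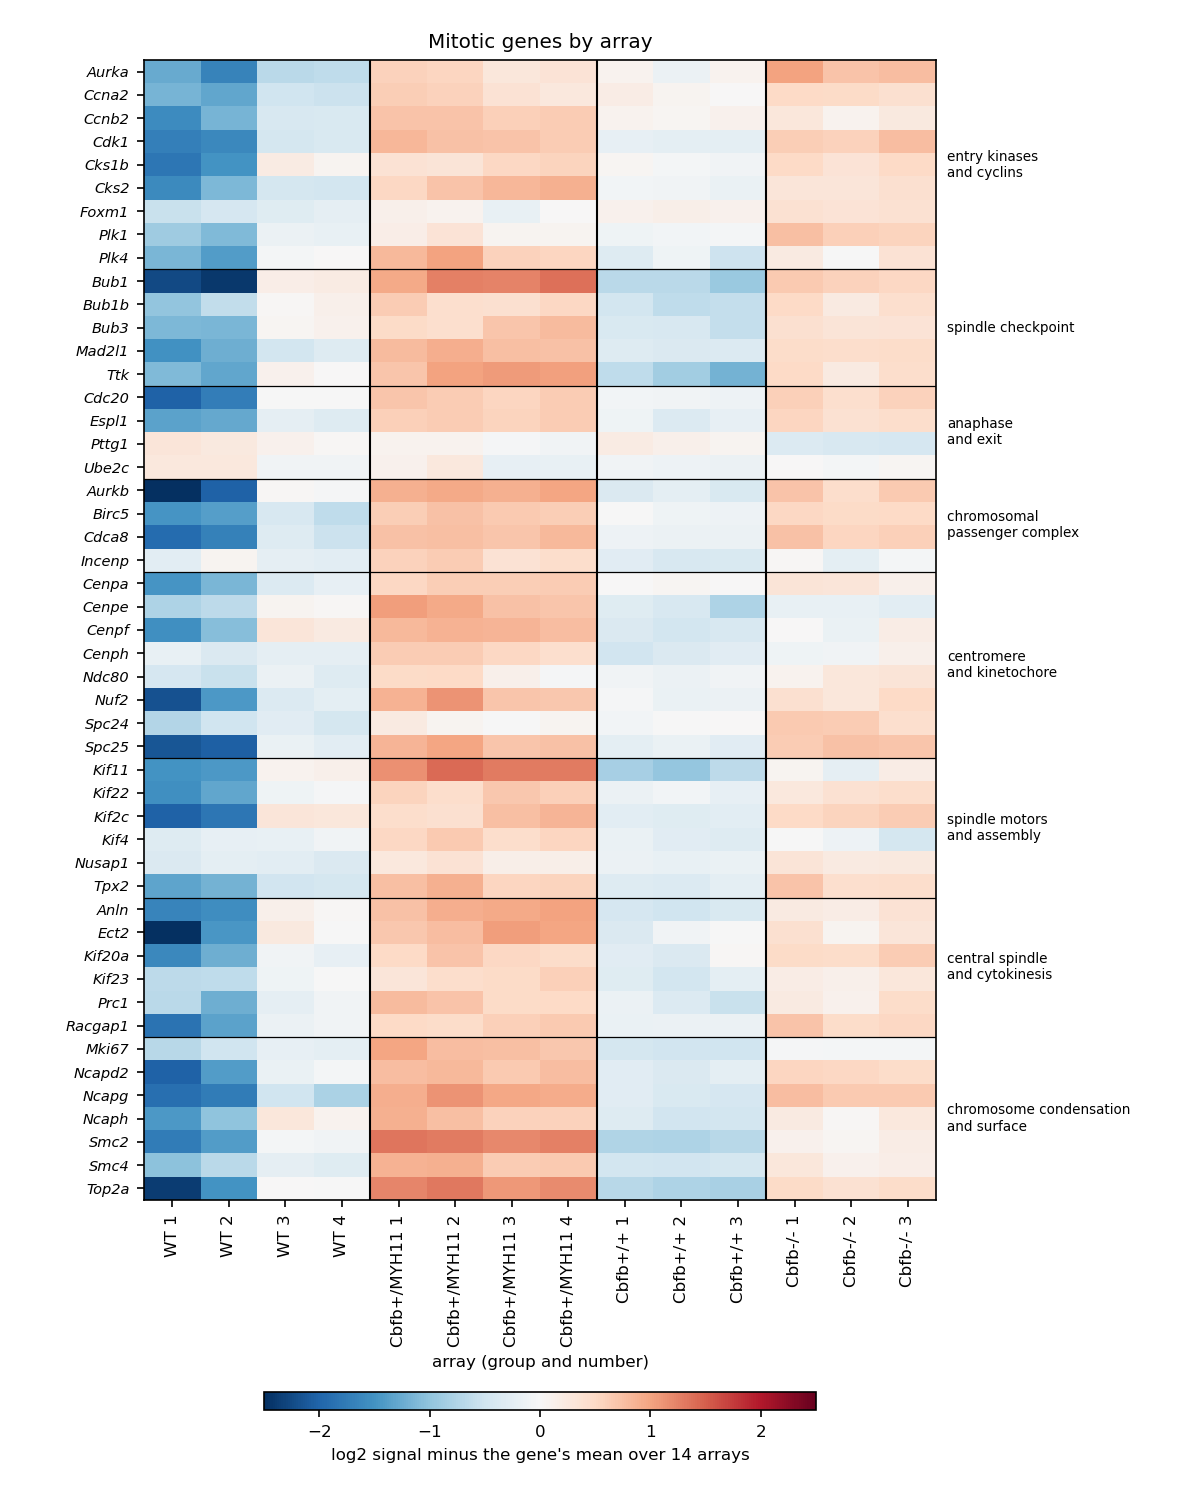
Each row is 1 of the 49 genes with a probe set, grouped by role, and each column 1 array; colour gives the log2 signal minus the gene's mean over the 14 arrays. WT arrays 1 and 2 are low in most rows, the Cbfb+/MYH11 and Cbfb-/- arrays are mostly above the gene's mean, and Pttg1 and Ube2c do not follow the other rows.

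The promoters are shown because many genes of late cell division carry the same short letters there, a feature that the choice of genes did not use. Cell cycle homology elements (CHR, here TTTGAA or its variant TTCGAA) are bound by the DREAM and MuvB complexes, and CCAAT boxes by the factor NF-Y. RefSeq promoters, from 250 bases before to 50 after the gene start in GRCm38.p6, were found for 42 of the 50 genes, in 45 windows, and the letters were searched on both strands. The window was not given for Aurkb, Ccna2, Incenp, Kif20a, Spc24, Tpx2, Foxm1 and Smc4. The 250 bases before the gene start are printed 5′ to 3′ in the direction of the gene, with capitals for CHR and CCAAT on either strand (CHR reads TTCAAA and CCAAT reads ATTGG on the other strand). Ccnb2, Cdk1, Cdc20 and Top2a stand for genes that were higher with the fusion, and Ube2c and Pttg1 are 2 of the 5 that were not called.
Ccnb2 (chr9:70421555-70421804, minus strand): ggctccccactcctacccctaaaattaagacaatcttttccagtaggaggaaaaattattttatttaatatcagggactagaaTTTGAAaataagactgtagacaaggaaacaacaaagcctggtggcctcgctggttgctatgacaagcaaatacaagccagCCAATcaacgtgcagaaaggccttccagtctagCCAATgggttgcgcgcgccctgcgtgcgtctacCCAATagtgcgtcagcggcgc
Cdk1 (chr10:69352913-69353162, minus strand): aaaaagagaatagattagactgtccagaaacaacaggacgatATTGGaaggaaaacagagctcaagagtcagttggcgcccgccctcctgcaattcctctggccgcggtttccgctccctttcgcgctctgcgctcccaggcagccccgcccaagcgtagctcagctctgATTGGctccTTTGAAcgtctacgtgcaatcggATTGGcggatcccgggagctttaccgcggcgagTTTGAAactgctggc
Cdc20 (chr4:118437344-118437593, minus strand): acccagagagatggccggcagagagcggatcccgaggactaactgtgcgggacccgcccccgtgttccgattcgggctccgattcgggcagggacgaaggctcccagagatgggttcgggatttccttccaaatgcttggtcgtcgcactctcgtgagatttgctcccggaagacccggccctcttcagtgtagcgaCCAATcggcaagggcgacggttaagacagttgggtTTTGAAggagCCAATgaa
Top2a (chr11:99024190-99024439, minus strand): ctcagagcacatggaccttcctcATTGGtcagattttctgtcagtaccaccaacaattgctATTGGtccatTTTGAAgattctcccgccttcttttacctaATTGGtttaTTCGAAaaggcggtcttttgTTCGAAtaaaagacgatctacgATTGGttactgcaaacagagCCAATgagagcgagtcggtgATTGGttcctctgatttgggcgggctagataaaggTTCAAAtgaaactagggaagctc
Ube2c (chr2:164769679-164769928, plus strand): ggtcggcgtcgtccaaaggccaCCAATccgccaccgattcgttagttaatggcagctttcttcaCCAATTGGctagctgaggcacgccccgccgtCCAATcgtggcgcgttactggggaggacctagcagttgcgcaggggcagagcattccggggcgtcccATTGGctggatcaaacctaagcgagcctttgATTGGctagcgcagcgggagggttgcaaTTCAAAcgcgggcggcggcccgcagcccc
Pttg1 (chr11:43425982-43426231, minus strand): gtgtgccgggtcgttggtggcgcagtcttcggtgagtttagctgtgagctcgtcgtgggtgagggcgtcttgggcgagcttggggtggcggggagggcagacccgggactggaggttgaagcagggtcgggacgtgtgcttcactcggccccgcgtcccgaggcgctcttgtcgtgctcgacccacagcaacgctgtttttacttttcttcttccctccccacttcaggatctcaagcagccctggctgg

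TTTGAA was present in 33 of the 45 windows (73.3%), against 17.9% of 32851 promoter windows of the same length. TTCGAA was present in 6.67% and 1.56%. Either form was present in 75.6% and 19.2%, CCAAT in 77.8% and 37.4%, and a CHR together with a CCAAT in 68.9% and 7.52%. At least 2 CCAAT were present in 51.1% of the windows and in 11.7% of all windows. The E2F sites TTTGGCGC and TTTCCCGC, which mark genes of S phase, were each in 1 of the 45 windows (2.22%), against 0.514% and 1.07% of all windows. Other spellings of the E2F site were not searched, so these shares do not show how common E2F sites are here. Of the 31 genes with a CHR, 28 had one within 50 bases of the gene start. Cdk1 and Cdc20 carry a CHR close to the start beside a CCAAT box, and Ccnb2 has 3 CCAAT boxes between a CHR far from the start and another just past it, outside the bases printed. Ube2c carries the same letters as the genes that rose, with 2 of its CCAAT overlapping on opposite strands. Pttg1 has none of these letters in the 250 bases shown. In the fusion comparison 30 of the 31 tested genes with a CHR were called higher, all but Ube2c, with a median change of 1.42, and 7 of 9 without one, with a median of 1.38. In Cbfb-/- blood the counts were 8 of 31 and 1 of 9, where 19.5% of all genes were called higher.

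**Figure D2:**
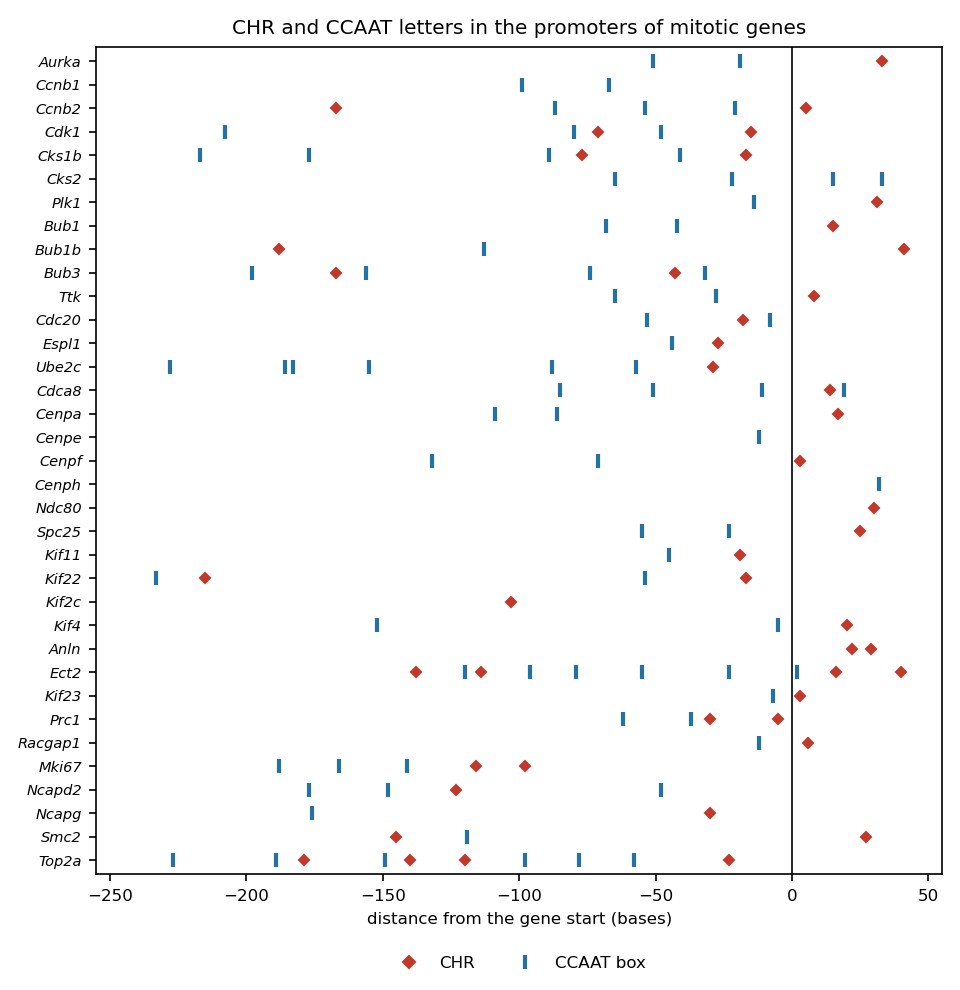
Each row is 1 gene with a CHR or CCAAT in its promoter windows and the x axis is the distance in bases from the gene start; marks show CHR and CCAAT. The CHR marks gather close to the start for 28 of the 31 genes that have one.

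Of the kinases, cyclins and the transcription factor that drive entry into mitosis, 8 of 9 were higher in Cbfb+/MYH11 blood. Cdk1, the entry kinase, had log2 signals of 9.30, 9.21, 9.19 and 9.12 in Cbfb+/MYH11 blood against 6.78, 6.86, 8.04 and 8.10 in WT. The lowest Cbfb+/MYH11 array was above the highest WT array, and the change was 1.76 (3.39-fold, 95% interval 1.20 to 2.32 on the log2 scale, adjusted p = 9.53e-05), or 1.08 within arrays 3 and 4. Ccna2, cyclin A2, gave 10.72, 10.70, 10.48 and 10.39 against 8.96, 8.82, 9.62 and 9.58. Its change was 1.32 (interval 0.97 to 1.68, adjusted p = 3.01e-05), and 0.83 within arrays 3 and 4, with no overlap of the groups. Ccnb2, cyclin B2, gave 9.57, 9.56, 9.45 and 9.49 against 7.28, 7.69, 8.45 and 8.47, a change of 1.55 (interval 1.09 to 2.01, adjusted p = 6e-05) and of 1.01 within arrays 3 and 4. Of the small CDK subunits, Cks1b gave 10.91, 10.86, 11.07 and 11.10 against 8.74, 9.05, 10.76 and 10.62, and Cks2 gave 10.66, 10.85, 10.98 and 11.02 against 8.54, 9.01, 9.71 and 9.68. For Cks1b the 2 high WT arrays came close to the Cbfb+/MYH11 arrays, so the change was 1.19 over all arrays and 0.39, not called, within arrays 3 and 4. Cks2 kept a change of 1.31 there, against 1.64 overall.

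Aurka, the centrosome kinase, gave 8.38, 8.34, 8.08 and 8.15 in Cbfb+/MYH11 blood against 6.53, 6.13, 7.12 and 7.17 in WT, a 2.83-fold change (adjusted p = 3.98e-05), or 0.97 on the log2 scale within arrays 3 and 4. Plk1, the polo-like kinase of mitotic entry, gave 7.89, 8.07, 7.79 and 7.80 against 6.84, 6.62, 7.57 and 7.55. The change of Plk1 was 0.75 (interval 0.35 to 1.14), and within arrays 3 and 4 it was 0.24 and not called. Plk4, which starts centriole duplication, changed by 1.38 overall and by 0.58, not called, within arrays 3 and 4. Foxm1, the forkhead factor that switches on genes of late G2, stayed under 1.5-fold: 6.78, 6.75, 6.48 and 6.68 in Cbfb+/MYH11 blood against 6.10, 6.25, 6.35 and 6.43 in WT, a difference of 0.39 (interval 0.20 to 0.58, adjusted p = 0.00221), or 0.19 within arrays 3 and 4. Other Foxm1 probe sets differed by -0.12 and -0.05.

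All 5 spindle checkpoint genes, whose products delay anaphase while a kinetochore is unattached, were higher with the fusion. Bub1, a kinetochore kinase, had the largest change of the 48 genes: 7.67, 7.97, 7.96 and 8.10 in Cbfb+/MYH11 against 4.45, 4.31, 6.88 and 6.92 in WT blood. The change was 2.29 (4.88-fold, interval 1.19 to 3.39, adjusted p = 0.0019), and 1.13 within arrays 3 and 4. WT arrays 1 and 2 were over 2 log2 units under WT arrays 3 and 4, and all 4 were under the lowest Cbfb+/MYH11 array. Bub1b, the BubR1 pseudokinase of the checkpoint complex, gave 7.98, 7.78, 7.76 and 7.87 against 6.37, 6.74, 7.39 and 7.47, a change of 0.85 (interval 0.42 to 1.28, adjusted p = 0.0026) that was 0.38 and not called within arrays 3 and 4. Mad2l1, the checkpoint protein that holds CDC20, gave 9.11, 9.22, 9.05 and 9.03 against 6.78, 7.08, 7.86 and 7.98. Its change of 1.68 (adjusted p = 3.04e-05) was 1.12 within arrays 3 and 4. Ttk, the MPS1 kinase, changed by 1.52 and Bub3, which helps BUB1 and BUBR1 bind kinetochores, by 1.11, or by 0.99 and 0.65 within arrays 3 and 4. Another Bub3 probe set differed by 0.35 and was not called, while another Bub1b probe set was higher, at 1.37.

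The 4 genes of anaphase onset and mitotic exit divided evenly. Cdc20, an activator of the anaphase promoting complex, gave 9.58, 9.53, 9.42 and 9.52 in Cbfb+/MYH11 blood against 6.86, 7.17, 8.88 and 8.88 in WT, a change of 1.57 (interval 0.75 to 2.38, adjusted p = 0.00318) that was 0.59 within arrays 3 and 4. Espl1, separase, gave 7.74, 7.79, 7.71 and 7.79 against 5.83, 5.87, 6.94 and 6.84, a change of 1.39 (adjusted p = 0.000162), or 0.86 within arrays 3 and 4. For both, the groups did not overlap. Ube2c, the ubiquitin-conjugating enzyme of the complex, gave 10.48, 10.63, 10.16 and 10.19 against 10.63, 10.63, 10.28 and 10.28, with arrays 1 and 2 of both groups above arrays 3 and 4. Its difference was -0.09 (interval -0.35 to 0.17, adjusted p = 0.524). Pttg1, securin, which keeps separase inactive, gave 12.15, 12.14, 12.03 and 11.98 against 12.37, 12.30, 12.17 and 12.09 and a difference of -0.16 (interval -0.33 to 0.02, adjusted p = 0.104), with overlapping groups. Its other probe sets differed by -0.13 and -0.02. So the inhibitor of separase and the conjugating enzyme were not called while separase and CDC20 were higher.

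The 4 genes of the chromosomal passenger complex, which corrects wrong attachments and then directs cytokinesis, were all higher. Aurkb, its kinase, gave 7.74, 7.80, 7.75 and 7.85 in Cbfb+/MYH11 blood against 4.36, 4.83, 6.89 and 6.82 in WT. The change was 2.06 (interval 1.07 to 3.05, adjusted p = 0.00188) and 0.95 within arrays 3 and 4, with WT arrays 1 and 2 under the level of 6. Birc5, survivin, gave 9.32, 9.42, 9.34 and 9.31 against 7.21, 7.32, 8.30 and 8.06, a change of 1.62 (adjusted p = 2.16e-05). Cdca8, borealin, changed by 1.86 and Incenp, the scaffold, by 0.67. Other Incenp probe sets differed by 0.42 and 0.41 and were not called, while other Cdca8 probe sets were higher, at 1.94 and 2.12. Birc5, Cdca8 and Incenp changed by 1.15, 1.17 and 0.64 within arrays 3 and 4.

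Of 7 tested centromere and kinetochore genes 6 were higher. Cenpa, the centromeric histone that marks where a kinetochore forms, gave 8.78, 8.88, 8.88 and 8.90 in Cbfb+/MYH11 blood against 6.79, 7.13, 7.92 and 8.06 in WT, a change of 1.38 (interval 0.91 to 1.86, adjusted p = 0.000184). Cenpe, a kinetochore kinesin, gave 7.23, 7.12, 6.92 and 6.86 against 5.40, 5.52, 6.25 and 6.20, a change of 1.19 (adjusted p = 0.000157). Neither gene's groups overlapped, and within arrays 3 and 4 they changed by 0.90 and 0.67. Cenpe reached the level of 6 only on the 4 Cbfb+/MYH11 arrays and 2 WT arrays. Without the fusion group Cenpe would not have passed the filter, so its call adds nothing to the count. The 4 genes of the Ndc80 complex, which grips the microtubule, ranged widely: Spc25 changed by 1.97, Nuf2 by 1.89 and Ndc80 by 0.63, and Spc24 differed by 0.57 and was not called (adjusted p = 0.000351). Ndc80 passed the filter through 2 Cbfb+/MYH11 and 2 Cbfb-/- arrays, so it had to be high in the mutants and its call adds nothing to the count. It gave 6.25, 6.27, 5.90 and 5.75 against 5.36, 5.22, 5.63 and 5.46, near the level of 6 throughout, and within arrays 3 and 4 it differed by 0.28 and was not called. Nuf2 gave 7.63, 7.87, 7.44 and 7.42 against 4.58, 5.32, 6.41 and 6.51, and Spc24 gave 7.35, 7.20, 7.11 and 7.19 against 6.39, 6.63, 6.85 and 6.69. In both, all Cbfb+/MYH11 arrays were above all WT arrays. Within arrays 3 and 4, Spc25 changed by 0.93 and Nuf2 by 0.97, and Spc24 differed by 0.38. Cenpf, a large outer kinetochore protein, changed by 1.34, and by 0.55, not called, within arrays 3 and 4.

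Among spindle motors and microtubule proteins 5 of 6 were higher. Kif11, the motor that pushes the spindle poles apart, gave 7.12, 7.40, 7.27 and 7.27 in Cbfb+/MYH11 blood against 4.49, 4.54, 6.06 and 6.11 in WT, a change of 1.97 (interval 1.26 to 2.67, adjusted p = 0.000247) and 1.18 within arrays 3 and 4. Tpx2, which activates Aurora A on the spindle, gave 8.54, 8.69, 8.34 and 8.34 against 6.48, 6.61, 7.32 and 7.36, a change of 1.53 (adjusted p = 2.16e-05). Kif11 and Tpx2 showed no overlap between groups, and Tpx2 changed by 1.00 within arrays 3 and 4. Kif2c, a kinesin that shortens microtubules, changed by 1.42 but by 0.51, not called, within arrays 3 and 4, and the chromokinesins Kif22 and Kif4 changed by 1.31 and 0.74. Kif4 gave 7.06, 7.20, 6.996 and 7.08 against 6.22, 6.35, 6.37 and 6.46. Within arrays 3 and 4 Kif22 and Kif4 changed by 0.70 and 0.62. Nusap1, a spindle-associated protein, differed by 0.53 (interval 0.38 to 0.69, adjusted p = 5.11e-05), under 1.5-fold and so not called, with no overlap of its groups, and by 0.45 within arrays 3 and 4.

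All 6 genes of the central spindle and cytokinesis were higher. Prc1, which bundles the midzone microtubules, gave 8.37, 8.30, 8.06 and 8.08 in Cbfb+/MYH11 blood against 6.91, 6.37, 7.36 and 7.50 in WT, a change of 1.17 (interval 0.72 to 1.61, adjusted p = 0.000377). Ect2, the activator of RhoA for the contractile ring, gave 6.31, 6.41, 6.70 and 6.64 against 3.05, 4.19, 5.90 and 5.65, a change of 1.82 (interval 0.81 to 2.83). Ect2 passed the filter through the 4 Cbfb+/MYH11 arrays and 1 Cbfb-/- array, so it had to be high in the fusion and its call adds nothing to the count, and WT array 1 was far lower than the others. Anln, the ring scaffold anillin, changed by 1.66, Racgap1 and Kif23, the 2 parts of centralspindlin, by 1.41 and 0.81, and the kinesin Kif20a by 1.33. These 4 changed by 0.89, 0.75, 0.60 and 0.64 within arrays 3 and 4, where Prc1 changed by 0.64 and Ect2 by 0.90.

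The 7 genes of chromosome condensation were all higher. Top2a, the topoisomerase that untangles sister chromatids, gave 10.15, 10.24, 10.02 and 10.11 in Cbfb+/MYH11 blood against 6.55, 7.44, 8.94 and 8.91 in WT, a change of 2.17 (4.50-fold, interval 1.29 to 3.05, adjusted p = 0.000587) and 1.14 within arrays 3 and 4. Ncapg, a condensin I subunit, gave 7.25, 7.49, 7.32 and 7.29 against 4.47, 4.60, 5.85 and 5.56. Its change of 2.22 (adjusted p = 1.26e-05) was 1.59 within arrays 3 and 4, with all 4 WT arrays under the level of 6. Mki67, the proliferation antigen Ki-67 that coats mitotic chromosomes, gave 11.03, 10.82, 10.80 and 10.73 against 9.36, 9.55, 9.84 and 9.81. The change of Mki67 was 1.21 (interval 0.97 to 1.44, adjusted p = 1.82e-06), and WT arrays 1 and 2 lay close to the other WT arrays. The condensin ATPases Smc2 and Smc4 changed by 2.10 and 1.32, and the condensin I subunits Ncapd2 and Ncaph by 1.66 and 1.21. Within arrays 3 and 4, Mki67 changed by 0.94, Smc2 by 1.30, Smc4 by 0.90 and Ncapd2 by 0.83, and Ncaph differed by 0.38 and was not called.

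**Figure D3:**
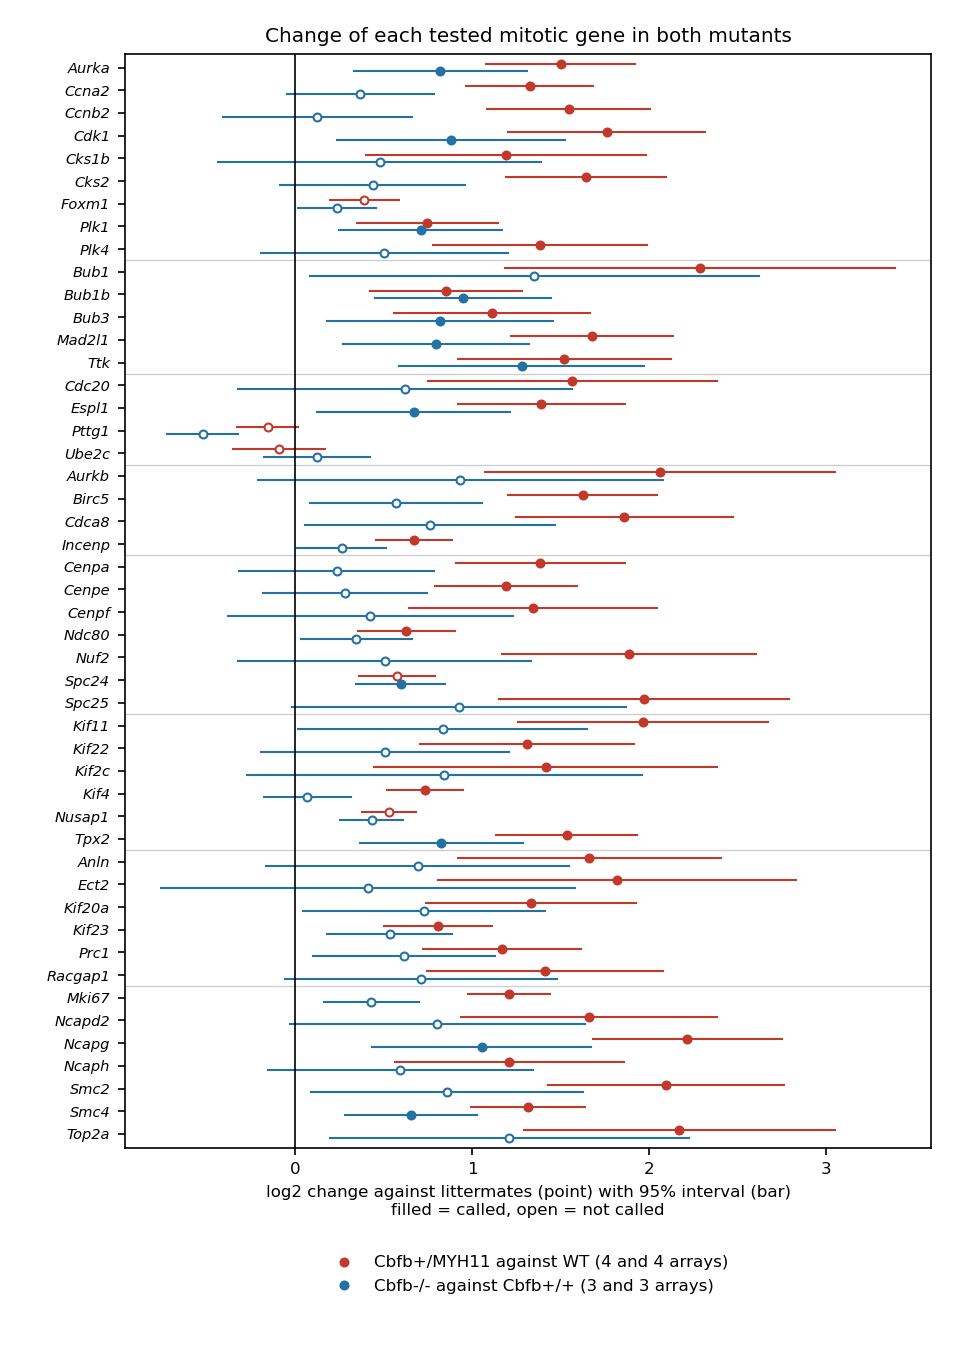
Points give each gene's log2 change, with its 95% interval, for Cbfb+/MYH11 against WT and for Cbfb-/- against Cbfb+/+; filled points were called. The fusion points lie to the right of the Cbfb-/- points for most genes, from -0.16 for Pttg1 to 2.29 for Bub1.

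How far the fusion result rests on WT arrays 1 and 2 shows most plainly in the array pairs. Within arrays 1 and 2, 46 of 48 genes were higher in Cbfb+/MYH11 blood (37% of all genes), with 0 lower against 7.63% of all genes and a median change of 2.03. Within arrays 3 and 4 the count was 35 (24.6%, with 0 lower against 6.44% of all genes) and the median 0.83, and 35 genes were called in both pairs (20.8%). Bub1b, Plk1, Plk4, Kif2c, Cenpf, Ndc80, Spc24, Nusap1, Foxm1, Ncaph and Cks1b were called within arrays 1 and 2 but not within arrays 3 and 4. WT arrays 3 and 4 were themselves higher than WT arrays 1 and 2 in 39 of 48 genes (24.4% of all genes) and lower in 0 (3.77%), with a median of 1.11. Bub1 differed there by 2.52, Aurkb by 2.26, Kif2c by 2.20 and Ect2 by 2.15. Of the Cbfb+/MYH11 arrays, by contrast, arrays 3 and 4 differed from arrays 1 and 2 in 0 of 48 genes (7.78% of all genes were called higher and 1.2% lower by limma, and 2964 had an unadjusted p under 0.05), with a median of -0.09. The change was smaller in arrays 3 and 4 than in arrays 1 and 2 for 39 genes (15.2% of all genes) and larger for 0 (4.34%), with a median difference of -1.07. The library labels give no reason for the pairs.

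**Figure D4:**
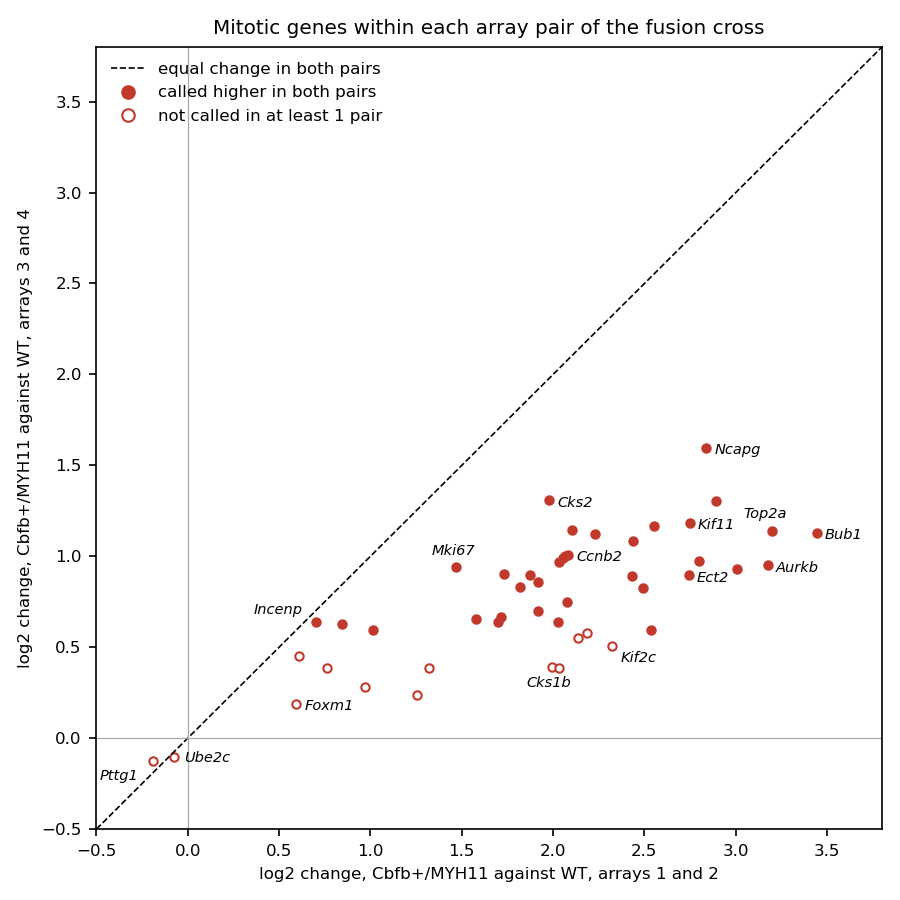
Each point is 1 gene, with its log2 change of Cbfb+/MYH11 against WT in arrays 1 and 2 on the x axis and in arrays 3 and 4 on the y axis, beside the line of equal change. Nearly all points lie under the line, with medians of 2.03 and 0.83.

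Blood of Cbfb-/- embryos held more of some of these transcripts than blood of its own littermates. Of the 48 genes 12 were higher and 0 lower, with 19.5% of all genes called higher and 6.65% lower, so the count of 12 is near the share over all genes. The median change was 0.62 against 0.13 over all genes. Of 29 further probe sets of 20 of these genes, 7 were higher, 1 was lower and 21 were not called. The 7 were of Bub1b, Cdc20, Kif11, Kif22, Kif2c, Ncaph and Racgap1, of which only Bub1b was called by the probe set used. Many genes that missed the threshold still did not overlap between groups: all 3 Cbfb-/- arrays were above all 3 Cbfb+/+ arrays for 45 of 48 genes, against 44.3% of all genes, the exceptions being Ccnb2, Kif4 and Pttg1. The count of 12 depends on the setting: a fit of only these 2 groups called 27 genes (23% of all genes), quantile scaling 4 (13.3%), leaving out any 1 of the 6 arrays 6 to 8, and averaging the arrays to putative pools 0. Without Cbfb-/- array 1 it was 6 and without Cbfb+/+ array 1 it was 7. In both mutants 11 genes were called (10.4% of all genes), that is 11 of the 43 and 11 of the 12. Called higher within both array pairs and in Cbfb-/- blood were 9 genes (6.83% of all genes): Aurka, Bub3, Cdk1, Espl1, Mad2l1, Ncapg, Smc4, Tpx2 and Ttk. Of these, Bub3, Cdk1 and Espl1 lost the Cbfb-/- call whichever 1 of the 6 arrays was left out. Mad2l1 lost it without Cbfb-/- array 1 or 3 and without Cbfb+/+ array 2 or 3. Ncapg reached the level of 6 on 0 WT and 1 Cbfb+/+ arrays, and Ttk on 2 WT and 0 Cbfb+/+ arrays. Without the mutants neither would have passed the filter, so neither adds to the counts of genes high in both mutants.

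Of the entry kinases and cyclins, Cdk1, Aurka and Plk1 were higher in Cbfb-/- blood. Cdk1 gave 9.10, 9.06 and 9.24 in Cbfb-/- and 8.28, 8.23 and 8.24 in Cbfb+/+ blood, a change of 0.88 (interval 0.24 to 1.52, adjusted p = 0.0303). Aurka gave 8.80, 8.52 and 8.57 against 7.88, 7.66 and 7.88, a change of 0.82 (adjusted p = 0.0129), and Plk1 8.48, 8.32 and 8.28 against 7.62, 7.65 and 7.68, a change of 0.71 (adjusted p = 0.0185). All 3 lay clear of the Cbfb+/+ arrays. The call of Cdk1 was lost when any 1 array of this cross was left out, and that of Plk1 without array 1 of either group. The cyclins did not pass: Ccna2 gave 10.62, 10.59 and 10.52 against 10.30, 10.19 and 10.13, a difference of 0.37 (interval -0.05 to 0.78), and Ccnb2 9.13, 8.94 and 9.09 against 8.93, 8.89 and 8.96, a difference of 0.13 (interval -0.41 to 0.66). Cks1b gave 11.04, 10.89 and 11.04 against 10.60, 10.50 and 10.45 and Cks2 10.45, 10.44 and 10.53 against 10.08, 10.06 and 9.98, with differences of 0.48 and 0.44. Foxm1 gave 7.03, 7.002 and 7.04 against 6.78, 6.82 and 6.77, a difference of 0.24.

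Of the 5 checkpoint genes 4 were higher. Ttk gave 6.49, 6.22 and 6.43 in Cbfb-/- against 5.36, 5.12 and 4.82 in Cbfb+/+ blood, a change of 1.28 (interval 0.58 to 1.97, adjusted p = 0.00829). Bub1b gave 7.86, 7.57 and 7.78 against 6.89, 6.72 and 6.76, a change of 0.95 (adjusted p = 0.00705), and Mad2l1 8.77, 8.75 and 8.77 against 7.98, 7.94 and 7.97, a change of 0.79 (adjusted p = 0.02). Bub3 changed by 0.82, but another Bub3 probe set differed by 0.44 and was not called. Another Bub1b probe set was also higher, at 1.21. The fifth, Bub1, had the largest difference of the 48 genes, 1.35 (interval 0.08 to 2.62), with 7.38, 7.28 and 7.24 against 6.03, 6.03 and 5.78 and no overlap, but an adjusted p of 0.077.

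The genes of anaphase onset again parted. Espl1 gave 7.69, 7.54 and 7.60 in Cbfb-/- against 7.05, 6.82 and 6.95 in Cbfb+/+ blood, a change of 0.67 (adjusted p = 0.0469), and Cdc20 gave 9.49, 9.31 and 9.46 against 8.83, 8.81 and 8.77, a difference of 0.62 (adjusted p = 0.254). Ube2c gave 10.38, 10.32 and 10.41 against 10.28, 10.23 and 10.22, a difference of 0.12 (interval -0.18 to 0.42). Pttg1 was the lowest of the 48: 11.72, 11.66 and 11.63 against 12.26, 12.19 and 12.14, a difference of -0.52 (interval -0.72 to -0.32, adjusted p = 0.00132). All Cbfb-/- arrays were under all Cbfb+/+ arrays, but the size was under 1.5-fold. Another Pttg1 probe set was called lower, at -0.60, and the third differed by -0.33.

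Aurkb gave 7.58, 7.30 and 7.51 in Cbfb-/- against 6.49, 6.61 and 6.48 in Cbfb+/+ blood, Birc5 9.20, 9.16 and 9.20 against 8.69, 8.59 and 8.57, and Cenpa 8.59, 8.57 and 8.40 against 8.27, 8.31 and 8.28. The groups did not overlap, but none of the 3 was called, with differences of 0.93, 0.57 and 0.23 (adjusted p = 0.161, 0.055 and 0.462). Cenpe gave 5.99, 5.998 and 5.91 against 5.87, 5.78 and 5.41 and Ndc80 5.86, 6.06 and 6.11 against 5.69, 5.62 and 5.68, both close to the level of 6. Of the Ndc80 complex Spc24 was called, with 7.78, 7.76 and 7.55 against 7.06, 7.11 and 7.13, a change of 0.60 (adjusted p = 0.00225). Kif11 gave 6.05, 5.76 and 6.17 against 5.14, 5.02 and 5.32, a difference of 0.83 that was not called (adjusted p = 0.0878), while Tpx2 gave 8.50, 8.21 and 8.24 against 7.47, 7.44 and 7.56, a change of 0.83 (adjusted p = 0.00928). Kif4 gave 6.54, 6.43 and 6.11 against 6.39, 6.26 and 6.23, with overlapping groups. Prc1 gave 7.81, 7.70 and 8.05 against 7.44, 7.25 and 7.03, a difference of 0.61. None of the 6 cytokinesis genes passed by the probe set used, but another Racgap1 probe set was higher, at 1.11. Another Kif11 probe set was also higher, at 0.72, while the third, at 0.62, was not called.

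Of the condensation genes, Ncapg and Smc4 were higher. Ncapg gave 7.14, 7.002 and 7.02 in Cbfb-/- against 6.07, 5.98 and 5.94 in Cbfb+/+ blood, a change of 1.05 (interval 0.44 to 1.67, adjusted p = 0.0119), and Smc4 changed by 0.65. Another Ncapg probe set differed by 0.36 and other Smc4 probe sets by 0.28 and 0.45, none of them called. For Ncaph the probe set used was not called, but another was higher, at 0.68. Top2a gave 9.41, 9.32 and 9.39 against 8.23, 8.15 and 8.11, a difference of 1.21 (interval 0.19 to 2.22) with adjusted p = 0.0522, and was not called. Mki67 gave 10.03, 9.995 and 9.998 against 9.61, 9.57 and 9.55, a difference of 0.43 (adjusted p = 0.0153), under 1.5-fold.

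The difference between the 2 mutant effects was tested directly. It was larger in the fusion for 10 genes and smaller for 0, with 14.9% of all genes called larger and 6.07% smaller, and the median was 0.79 against 0.09 over all genes. The 10 genes were Ccnb2, Ccna2, Cks2, Birc5, Cenpa, Cenpe, Kif4, Ncapg, Smc4 and Mki67. Cenpe would not have passed the filter without the fusion group, so its call adds nothing to this count. Ccnb2 had the largest: 1.55 with the fusion and 0.13 without Cbfb, a difference of 1.42 (interval 0.72 to 2.12, adjusted p = 0.00623). The Cbfb-/- arrays themselves were only a little under the Cbfb+/MYH11 arrays for Ccnb2, and the 2 sets of littermates differed. Cks2 differed by 1.20, Ncapg by 1.16, Cenpa by 1.15, Birc5 by 1.05 and Ccna2 by 0.96. With the array number as a replicate block Cenpe (adjusted p = 0.0536) and Smc4 (adjusted p = 0.0752) were not called.

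Ect2 and Nuf2 had differences of 1.40 (interval -0.14 to 2.95, adjusted p = 0.169) and 1.38 (interval 0.29 to 2.47, adjusted p = 0.0615) that were not called. In Cbfb-/- and Cbfb+/+ blood Ect2 gave 6.05, 5.72 and 5.96 against 5.29, 5.56 and 5.64, and Nuf2 gave 7.16, 7.03 and 7.26 against 6.72, 6.59 and 6.61. At the other end were Ube2c at -0.21 (interval -0.61 to 0.18), Bub1b at -0.09 (interval -0.75 to 0.56) and Spc24 at -0.02 (interval -0.35 to 0.31). For Bub1b and Spc24 these intervals allow a smaller or a larger effect in either mutant. Without WT arrays 1 and 2 the count was 8 (15.7% of all genes), near the share over all genes, and the median 0.16.

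The WT littermates of the fusion cross and the Cbfb+/+ littermates of the null cross carry the same Cbfb genotype. Of the 48 genes 9 were higher in Cbfb+/+ than in WT blood and 0 lower, with 5.48% of all genes called higher and 5.76% lower: Aurka (1.07), Ccna2 (0.96), Ccnb2 (0.96), Cdk1 (0.81), Cdca8 (0.97), Birc5 (0.90), Cenpa (0.81), Ncapg (0.88) and Cks2 (0.80). The median difference was 0.51, and all Cbfb+/+ arrays were above all WT arrays for 15 genes (18.7% of all genes). Without WT arrays 1 and 2 the median was -0.0762, with 2 genes called higher (6.87% of all genes) and 8 lower, among them Bub1, Kif11 and Ttk, where 19.4% of all genes were called lower. The 2 control groups therefore differed in these genes by an amount that depends on those arrays. Of the genes called higher, Cdca8, Cdk1, Cenpa, Cks2 and Ncapg also lost the call whichever 1 of the Cbfb+/+ arrays was left out. All 4 Cbfb+/MYH11 arrays were above all Cbfb-/- arrays for 30 of 48 genes, against 36.2% of all genes. The Cbfb-/- arrays were above for Plk1, Aurka, Spc24 and Foxm1. Cross and mutation cannot be told apart in such levels.

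Neighbouring genes of the same machinery were looked up from lists chosen by name, to be read against the 30.5% of all genes called higher with the fusion and the 19.5% in Cbfb-/- blood. Of 25 tested genes of the inner centromere and outer kinetochore, 20 were higher with the fusion and 7 in Cbfb-/- blood, among them Cenpk (1.67 and 1.27). Of 13 cohesin genes, whose products hold sister chromatids together, 12 were higher with the fusion (for example Stag2, 1.28) and 2 in Cbfb-/- blood. All 6 genes of condensin II and its partners were higher with the fusion, including Ncapg2 (1.98), and 1 in Cbfb-/- blood. Other kinesins and spindle genes counted 15 of 20 and 4 of 20. In Cbfb-/- blood the counts for cohesin, condensin II and these kinesins were thus near or under the share over all genes.

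The subunits and regulators of the anaphase promoting complex were called higher in 7 of 16 cases with the fusion and in 5 in Cbfb-/- blood. They included Anapc5 (1.01), a subunit, and Fbxo5 (1.94), an inhibitor of the complex, with the fusion. Fzr1, the activator of late mitosis and G1, differed by -0.57 and was not called. Of 14 other kinases and phosphatases of mitotic entry, 8 were higher with the fusion, and in Cbfb-/- blood 4 were higher and Cdc25b, a phosphatase that activates CDK1, was lower (-0.87). Among 16 genes that control cell cycle transcription, 7 were higher with the fusion, including Mybl2 (1.62), a partner of MuvB, and Tfdp2 was lower (-0.92).

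Most genes of S phase, which copy the DNA before mitosis, were higher in both mutants. Of 20 tested, 17 were higher with the fusion (median 1.71) and 16 in Cbfb-/- blood (median 1.22), and the direct test called the effect larger in the fusion for 0 genes and smaller for 1, Gins2 (-0.60). Their median log2 signal was 8.64 to 8.77 on the Cbfb+/MYH11 arrays, 6.55 to 8.08 on WT, 8.20 to 8.27 on Cbfb-/- and 7.01 to 7.18 on Cbfb+/+. WT arrays 1 and 2 were the low ones here too, since 17 of 20 S phase genes were higher in WT arrays 3 and 4 than in WT arrays 1 and 2. No test compared the S phase list with the mitotic list.

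Markers of other cells moved with the groups and with the array pairs. Summed over 8 markers of liver and endoderm, the linear signal was 5164, 5100, 380 and 398 on WT arrays 1 to 4, 291 to 1033 with the fusion, 4724 to 5164 in Cbfb-/- and 1884 to 1926 in Cbfb+/+ blood. Summed over 9 macrophage markers it was 2362, 2764, 606 and 577 on WT arrays 1 to 4, 592 to 743 with the fusion, 335 to 378 in Cbfb-/- and 1670 to 1760 in Cbfb+/+. The gene Csf1r, singled out after its values were seen, made up most of the macrophage sum with the fusion, with log2 signals of 8.71 to 9.17 there against 7.74 and 7.53 on WT arrays 3 and 4. Of the 7 macrophage markers tested, 6 were lower with the fusion, and within arrays 3 and 4 also 6 were lower and 1 higher. So the 2 WT arrays with low mitotic genes were the 2 with high liver and macrophage markers. By the summed signal, Cbfb-/- blood had as much of the liver markers, with high mitotic genes. That sum weighs the strongest marker most, and the median log2 signal over the 7 tested liver markers was higher there. It was 7.79 to 7.98 in Cbfb-/- blood and 6.93 on both WT arrays 1 and 2. The 8 mesenchyme markers summed to 664, 769, 3113 and 2880 on WT arrays 1 to 4, 683, 618, 1436 and 1471 on Cbfb+/MYH11 arrays 1 to 4, 1731 to 1823 in Cbfb-/- and 1110 to 1146 in Cbfb+/+. Of them 7 were higher in WT arrays 3 and 4 than in WT arrays 1 and 2, and 6 were lower with the fusion within arrays 3 and 4, so that pair of arrays differed in mesenchyme markers too. Summed over 13 neural markers it was 593, 572, 1470 and 1497 on Cbfb+/MYH11 arrays 1 to 4, 396 to 583 on WT, 1959 to 2169 in Cbfb-/- and 389 to 431 in Cbfb+/+. The 8 platelet markers summed to 4335, 5022, 1824 and 1784 on WT arrays 1 to 4, 1659 to 2158 with the fusion, 946 to 986 in Cbfb-/- and 3412 to 3501 in Cbfb+/+. All 8 were lower in WT arrays 3 and 4 than in WT arrays 1 and 2 (3.77% of all genes), the same split as for liver and macrophage markers. Of the stem and progenitor markers 4 of 6 were higher with the fusion, with Gata2 at 3.51, and 3 of 6 were lower in Cbfb-/- blood. Of 8 erythroid markers 3 were higher with the fusion, including Gata1 (0.77) and Klf1 (0.86), and 0 in Cbfb-/- blood. The part of these cells in the mitotic result was not tested.

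**Figure D5:**
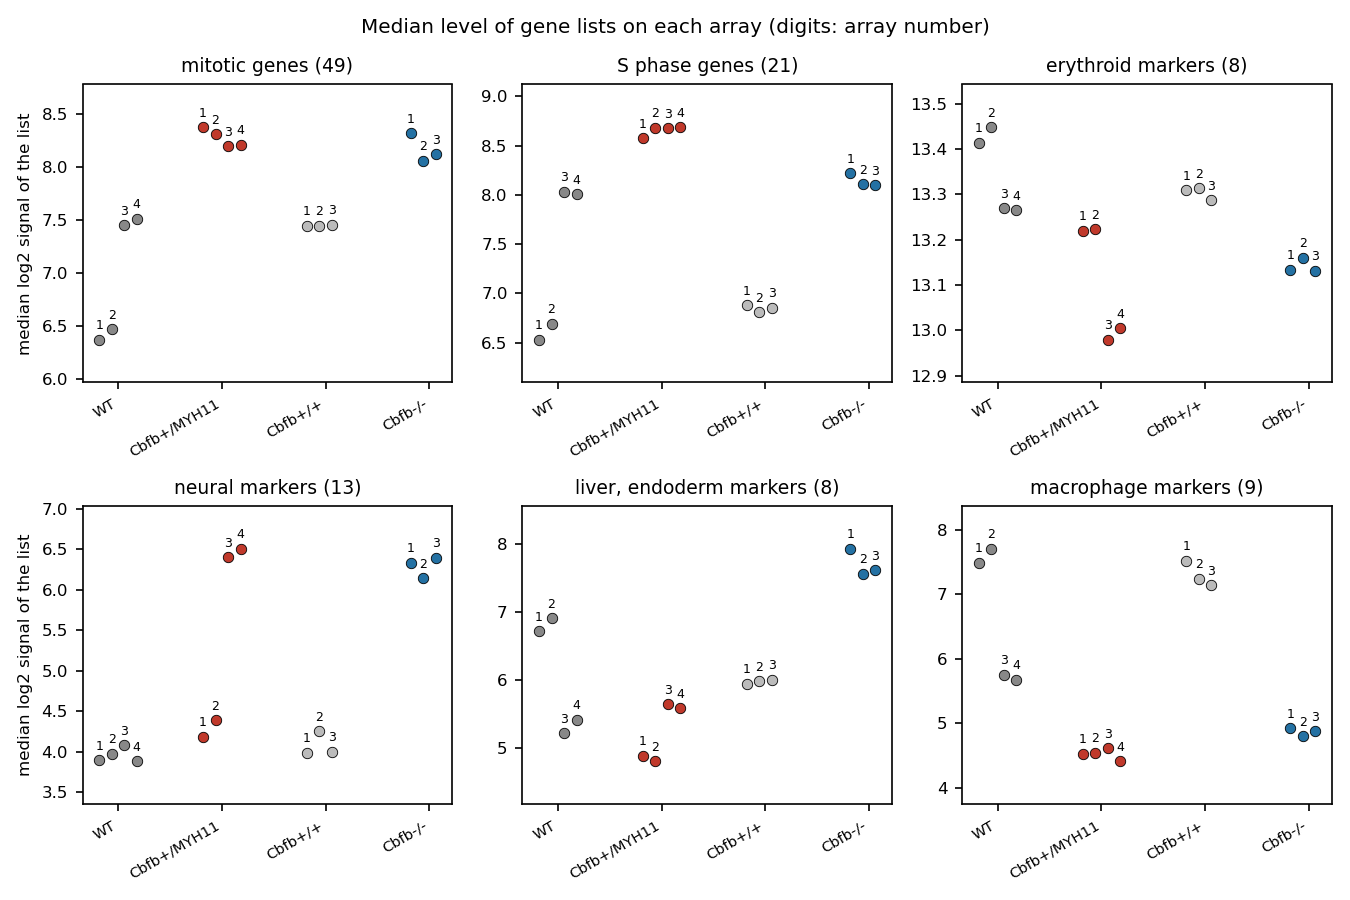
Points give each array's median log2 signal over the genes of 6 lists: the 49 mitotic genes, 21 S phase, 8 erythroid, 13 neural, 8 liver and endoderm and 9 macrophage genes. The mitotic and S phase medians are lowest on WT arrays 1 and 2, where the liver and macrophage medians are high.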

How the data were processed

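The authors deposited log2 signals of 45101 probe sets on 14 arrays, made by RMA in Affymetrix Expression Console per the submitters' processing notes (version not given in the sources used here); the log2 values were used as deposited. Probe sets were named from the platform table, with 1 gene symbol for 34958, several for 932 and none for 9211, the last 2 kinds left out. A gene took its probe set with the highest mean signal over the 14 arrays, and 34 of the 49 genes have several. Genes reaching log2 6 on 3 arrays were fitted with limma 3.58.1 in R 4.3.3 (the 4 groups in 1 model; a second model with the array pairs as groups), with Benjamini-Hochberg adjustment. The test was tried on simulated data with independent noise on each array and no array pairs. That trial cannot show how the test behaves on paired arrays or arrays that share a blood pool. The members, lists and tests were chosen with earlier results of these data known.

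Array values are given for the named regulators of each step and for the 3 largest and 3 smallest changes of each mutant and of their difference; from other lists up to 3 genes with the smallest adjusted p were named. In the fusion cross, arrays of the same number deviated together (correlations 0.521, 0.407, 0.499 and 0.499), but so did unlike numbers within the pairs 1 and 2 (0.417 and 0.446) and 3 and 4 (0.481 and 0.514), so these data show the 2 pairs rather than a pairing by number. In the other cross the numbers do not pair the arrays (0.034, 0.011 and 0.017). The number of arrays limits the precision. Alternatives were quantile or median scaling, other filters, probe set rules, blocks and left-out arrays. Promoters came from RefSeq, GRCm38.p6. Figures used Python 3.11.15 and matplotlib 3.10.9.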

Additional observations from a re-analysis of the deposited data

Results flagged for a closer look

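Incenp, the passenger complex scaffold, stood apart on WT array 2 at a log2 signal of 9.04, where the other WT arrays gave 8.73, 8.76 and 8.71. The threshold is one that about 1 in 20 groups passes by chance, and this was 1 of 98 groups examined. Arrays 1 to 4 with the fusion were all above it.

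For 10 genes the log2 change with the fusion exceeded that without Cbfb by the interaction term of the limma model: Ccnb2 by 1.42, Cks2 by 1.20, Ncapg by 1.16, Cenpa by 1.15, Birc5 by 1.05, Ccna2 by 0.96, Cenpe by 0.91, Mki67 by 0.77, Kif4 by 0.67 and Smc4 by 0.66. The count of 10 of 48 compares with 14.9% of all genes, and without WT arrays 1 and 2 it was 8, with 15.7% of all genes, near that share. WT arrays 1 and 2 enter each of these 10 differences, and the causes were not tested. The calls of Ncapg and Smc4 were lost whichever 1 of the Cbfb+/MYH11, Cbfb-/- or Cbfb+/+ arrays was left out, and without WT array 2. Smc4 also lost it without WT array 1. Cenpe lost its call without Cbfb+/MYH11 array 1 or 2, WT array 2, any 1 Cbfb-/- array, or Cbfb+/+ array 1 or 2. Cenpa lost it without Cbfb-/- array 3 or Cbfb+/+ array 2, and Kif4 without Cbfb-/- array 3. Without the fusion group Cenpe would also not have passed the filter.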

How the results depend on the processing

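All values count the 48 tested genes called higher unless stated, and the settings without WT arrays 1 and 2 and with the array pair as a block were chosen after seeing the data. The fusion count lay between 34 and 46 under the settings tried, apart from 29 of 35 genes tested with the mean of a gene's probe sets and from the averaged pairs: averaging the arrays to 6 putative pools left 0 for Cbfb+/MYH11 against WT, 0 for Cbfb-/- against Cbfb+/+, 0 for the difference and 0 for Cbfb+/+ against WT (33, 0, 0 and 0 genes with an unadjusted p under 0.05 in limma), with few residual degrees of freedom. Over all 7393 genes the pools left 17 higher for the fusion (0.23%) and 0, 0 and 0 for the other comparisons. A count given without a share was not set against all genes here. Quantile scaling gave 4 higher and 1 lower (Pttg1) in Cbfb-/- blood with a median of 0.39 (13.3% of all genes were higher), 6 for the difference (11% of all genes) and 19 within arrays 3 and 4. The mean of a gene's probe sets gave 23 within arrays 3 and 4 and 25 between the WT pairs. Without the 1.5-fold floor 1 gene was lower in Cbfb-/- blood. Fitting only the groups compared gave 27 for Cbfb-/- and 2 for Cbfb+/+ against WT.

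Leaving out 1 array gave 41 to 44 for the fusion (medians 1.18 to 1.60), 6 to 8 for Cbfb-/- (medians 0.596 to 0.683), 5 to 19 for the difference (medians 0.546 to 1.02) and 4 to 19 for Cbfb+/+ against WT (medians 0.246 to 0.662). The difference counted 19 without WT array 3, 18 without WT array 4 and 5 without Cbfb-/- array 3. Cbfb+/+ against WT counted 19 without WT array 3, 18 without WT array 4, and 4 without WT array 1 or without any 1 Cbfb+/+ array. Without WT arrays 1 and 2 together, the median was 0.81 for the fusion, 0.16 for the difference and -0.0762 for Cbfb+/+ against WT, where Bub1 (-0.95), Cenpf (-0.67), Ncaph (-0.61), Smc2 (-0.68) and Top2a (-0.76) reversed. The array pair as a block gave 21 for the difference (17.8% of all genes). With the array number as a replicate block the counts were 43 for the fusion (31.5% of all genes), 14 for Cbfb-/- (22.1%) and 8 for the difference. In the difference Cenpe (adjusted p = 0.0536) and Smc4 (0.0752) were no longer called, and in Cbfb-/- blood Bub1 (0.0452) and Top2a (0.0492) were. This block changed no other call of these 3 comparisons. The cause of these changes was not tested.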
